A study of Mus musculus with 12 samples.

Results

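Protocadherins, the largest branch of the cadherin superfamily of adhesion proteins, were followed in ribosome-bound mRNA of mouse CA1 pyramidal cells with and without Fmr1. Members were all genes whose symbol starts with Pcdh and that had at least 15 reads over the 12 libraries. Of 71 such genes listed, 69 met this rule, out of 17823 genes tested and 24079 listed. They comprised 13 alpha, 22 beta and 22 gamma members, which form 3 gene clusters side by side, and 12 non-clustered members at other places. The other 2 listed genes, Pcdha4 and Pcdha4-g, had 0 reads in every library. These 2 entries overlap over the same exon, which left 52 and 0 bases that the counting could assign to either of them.

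The 6 wild-type and 6 Fmr1-/y libraries (labelled Frm1 knockout) came from male mice of 2 to 6 months that all carried Wfs1-CreERT2 and RiboTag. In RiboTag mice, Cre switches on an HA-tagged copy of the ribosomal protein Rpl22, so that ribosomes of the Cre-expressing cells, with their mRNA, can be pulled down with an antibody to HA. The Cre was tamoxifen-inducible and driven by Wfs1, a gene of CA1 pyramidal cells, and the pull-down started from whole hippocampus. Mice of both genotypes were given tamoxifen (100 mg/kg, 3 days) and used 1 week afterwards, as the methods state for immunoprecipitation in general. Each library was a pool of 4 to 6 mice, and n counts pools throughout. A lower value could mean less mRNA or fewer ribosomes on it, and fewer cells of a type and less RNA per cell cannot be told apart.

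Protocadherins are transmembrane proteins that bind like copies on facing membranes. In the alpha and gamma clusters, each isoform starts from its own promoter and large variable exon, which is spliced to constant exons shared by the whole cluster, while each beta gene is a single exon. Neurons switch on different sets of the alternate isoforms, with CTCF and cohesin joining the chosen promoter to an enhancer, and the C-type isoforms (Pcdhac1, Pcdhac2, Pcdhgc3, Pcdhgc4 and Pcdhgc5) are used more broadly. Clustered members give neurons a surface identity used in dendrite self-avoidance, arborization and survival. The non-clustered genes, most of them called delta protocadherins, act in axon growth, synapse formation and synapse removal. FMRP, the Fmr1 product, is an RNA-binding protein that regulates translation.

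Promoters of 4 non-clustered genes are shown because Pcdh20, Pcdh9 and Pcdh17 had the lowest p-values of that group in the genotype comparison and Pcdh19 had the smallest standard error of the 69 members. Each window runs from 250 bases before to 50 bases after a RefSeq transcript start (GRCm38.p6), written 5′ to 3′ on the strand of the gene, with CG pairs in capitals. The window of Pcdh20 is chr14:88471347-88471646 (minus strand), and the Pcdh9 window shown is chr14:93890630-93890929 (minus). Another Pcdh9 window, chr14:93890620-93890919 (minus) with 19 CG pairs, is not shown. The window of Pcdh17 is chr14:84443313-84443612 (plus) and that of Pcdh19 chrX:133688944-133689243 (minus).
Pcdh20: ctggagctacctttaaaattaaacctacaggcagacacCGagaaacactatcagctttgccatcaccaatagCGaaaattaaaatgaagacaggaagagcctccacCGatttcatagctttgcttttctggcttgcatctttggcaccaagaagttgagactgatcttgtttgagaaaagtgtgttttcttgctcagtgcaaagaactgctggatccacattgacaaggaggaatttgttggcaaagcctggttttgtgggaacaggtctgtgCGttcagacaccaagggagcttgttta
Pcdh9: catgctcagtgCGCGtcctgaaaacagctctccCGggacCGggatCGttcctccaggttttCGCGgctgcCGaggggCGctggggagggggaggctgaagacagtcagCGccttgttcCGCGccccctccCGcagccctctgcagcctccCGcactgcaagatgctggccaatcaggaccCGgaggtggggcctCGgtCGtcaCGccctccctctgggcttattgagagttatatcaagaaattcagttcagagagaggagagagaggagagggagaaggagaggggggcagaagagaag
Pcdh17: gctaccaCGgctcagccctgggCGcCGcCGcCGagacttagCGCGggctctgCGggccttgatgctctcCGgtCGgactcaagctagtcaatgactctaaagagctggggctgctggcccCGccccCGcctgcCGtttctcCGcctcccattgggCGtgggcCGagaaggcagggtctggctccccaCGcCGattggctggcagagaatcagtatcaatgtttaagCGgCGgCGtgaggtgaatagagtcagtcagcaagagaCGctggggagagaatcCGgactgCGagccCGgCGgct
Pcdh19: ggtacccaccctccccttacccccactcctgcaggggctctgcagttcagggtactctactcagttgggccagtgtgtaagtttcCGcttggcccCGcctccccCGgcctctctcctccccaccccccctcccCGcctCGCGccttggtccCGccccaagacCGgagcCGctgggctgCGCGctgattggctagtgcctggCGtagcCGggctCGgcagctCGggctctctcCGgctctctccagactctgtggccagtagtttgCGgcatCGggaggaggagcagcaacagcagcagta

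The Pcdh20 window held 4 CG pairs and 43.7% G and C. The Pcdh9 window shown held 18 pairs, the Pcdh17 window 26 pairs and the Pcdh19 window 18 pairs. The median of 32841 promoter windows of the same length, taken outside chromosome 18, was 7 pairs and 52.7% G and C. Pcdh20 alone of these 4 lay below it. In all, 10 windows were at hand for 9 non-clustered members, and their CG pairs ranged from 4 to 26. On either strand, TATAAA occurred in windows of 2 of these 9 members (13.6% of the 32841 windows) and GGGCGG in 4 (35.7%). TGACG occurred in 2 (20.8%) and CACGTG, which is the same on both strands, in 0 (7.15%). Members were counted by gene, and the percents by window. These matches describe letters in a window and were not tested against the levels.

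The libraries held 39400980 to 55745464 assigned reads in wild type and 43106629 to 65565479 in Fmr1-/y. Fmr1 had 1971 to 2608 reads in every wild-type library, 0 in 5 Fmr1-/y libraries and 1 in the other. Markers of CA1 pyramidal cells summed to 8396–10422 CPM (read counts scaled to library size with edgeR's TMM factors) in wild type and 8105–9636 in Fmr1-/y. All 8 of these markers had a log2 fold change below 0, beside 48.6% of all genes tested. At an unadjusted p under 0.05 (edgeR), 2 of the 8 were lower, Wfs1 (-0.27) and Neurod6 (-0.19), beside 3.67% of all genes. Markers of other cells were also present. Those of astrocytes summed to 698–846 and 762–1188 CPM, with 2 of 5 higher at an unadjusted p under 0.05, beside 4.29% of all genes. Those of oligodendrocytes summed to 1032–1524 and 936–1405 CPM, with none of 5 past it. Those of the choroid plexus summed to 6177–11579 and 8102–17023 CPM, with 2 of 3 higher at that threshold. Those of GABAergic cells summed to 114–237 and 123–177 CPM, with 0 of 8 past it. None of the listed marker genes was at 0 in all libraries, and the part of CA1 markers and of other cells in the protocadherin differences was not tested.

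Levels were first compared between members within wild type, in CPM per kilobase of exon that belonged to 1 gene only. That correction matters here, because reads in the shared constant exons of the alpha and gamma clusters cannot be given to 1 isoform and are not counted: an alpha member had 2346 to 2853 bases of its own out of 5206 to 5713. Pcdhgc5, a gamma C-type isoform, was the highest member at 30.1 ± 4.68 CPM per kb (SD, n = 6). Pcdh1, a delta protocadherin of epithelia and neurons, followed at 26.8 ± 5.27. Their ranges over the wild-type libraries overlapped (24.4–37.9 and 19.0–32.2), so their order was not resolved. When all exon bases were used as the length, Pcdh1 ranked 1 and Pcdhgc5 ranked 3.

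Next came Pcdh20 (16.8 ± 1.13 CPM per kb), Pcdh9 (12.7 ± 1.86) and Pcdh19 (10.1 ± 0.345), all non-clustered. The ranges of Pcdh20 (15.5–18.9) and Pcdh9 (9.84–14.9) did not overlap, whereas those of Pcdh9 and Pcdh19 (9.69–10.5) did. Pcdhgc3 (8.36 ± 1.003), Pcdh8 (8.17 ± 0.676) and Pcdhac2 (7.98 ± 1.73) lay close together within their spread, as did Pcdh17 (5.80 ± 0.641), Pcdhga11 (5.68 ± 0.817) and Pcdhb17 (5.59 ± 0.179). The 12 highest members thus included 5 clustered ones, 3 of which were C-type isoforms.

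The group medians were 0.903 CPM per kb for alpha, 1.42 for beta, 2.12 for gamma and 5.23 for non-clustered members. Against 16536 genes with a level per kilobase, 58 of the 69 members lay below the median gene and 0 were in the top 10%. Pcdhgc5 stood at the 85.2th percentile and the lowest member, Pcdh12, at the 5.75th. Pcdh12, a cadherin of blood vessel endothelium, had 0.0487 CPM per kb. Among clustered members, Pcdha8 (0.0557) and Pcdhb1 (0.0657) were nearly silent.

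**Figure D1:**
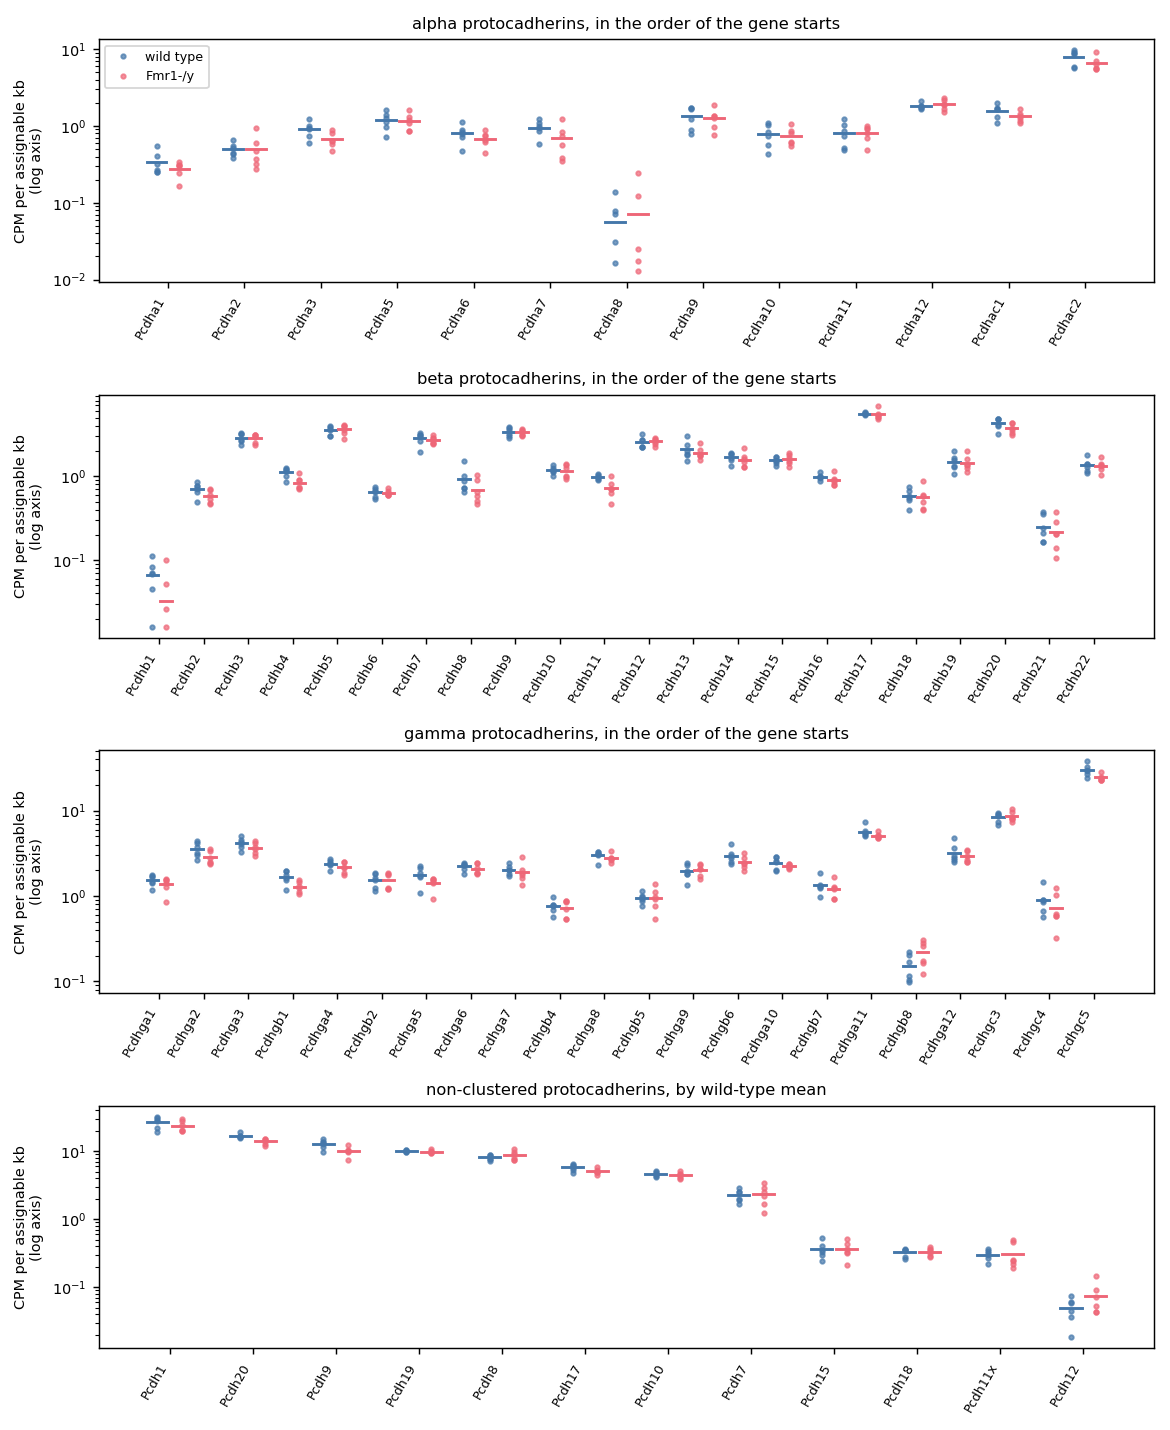
Level of each of the 69 protocadherins in CPM per kilobase of assignable exon (log axis), 1 point per library and a line at the mean of each genotype; a library at 0 has no point. C-type Pcdhac2 and Pcdhgc5 stand at the end of their clusters and above the rest of them, and beta members range from Pcdhb1 to Pcdhb17.

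The clusters lay in a row on chromosome 18 (GRCm38), with the alpha members from 36930285 to 37188897, the beta members from 37264998 to 37521419 and the gamma members from 37661775 to 37841873. Within the alpha cluster, the C-type isoforms made up 49.97% ± 3.15 (SD, n = 6) of the summed level per kilobase in wild type and 47.3% ± 1.05 in Fmr1-/y, although they were 2 of 13 members. Pcdhac2, which is needed for the tiling of serotonergic axons, accounted for most of this with 41.7% ± 3.29 in wild type and 39.2% ± 0.897 in Fmr1-/y. Pcdhac1 contributed 8.26% and 8.09%. The highest alternate isoform was Pcdha12, at 1.82 CPM per kb in wild type and 1.92 in Fmr1-/y.

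In the gamma cluster, the 3 C-type isoforms held 47.6% ± 1.38 in wild type and 46.6% ± 0.610 in Fmr1-/y, the 12 A-type isoforms 41.1% and 41.9%, and the 7 B-type isoforms 11.3% and 11.5%. Pcdhgc5 alone held 36.3% ± 1.09 in wild type, where libraries ranged from 35.4% to 37.9%. In Fmr1-/y its share was 33.7% ± 1.44, with a range of 31.1% to 35.1%. This was the only one of 57 clustered members whose share of its cluster did not overlap between genotypes, and no p was computed for shares. The gap was narrow, from 35.13% to 35.38%, and the Pcdhgc5 level in CPM did overlap. A count of non-overlapping shares over all genes was not made. For levels in CPM, 0.41% of all genes lay lower in every Fmr1-/y library and 0.213% higher. Pcdhgc3, which acts in dendrite arborization, held 10.2% ± 1.25 and 11.9% ± 1.17. Pcdhgc4, on which the survival of inhibitory neurons depends, held 1.05% ± 0.219 and 0.983% ± 0.382.

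No isoform led the beta cluster to that degree. Pcdhb17 held 13.8% of the summed beta level per kilobase in wild type and 14.2% in Fmr1-/y, Pcdhb20 held 10.5% and 9.66%, and Pcdhb5 held 8.71% and 9.37%. An equal share would be 4.55% each.

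The genotypes were compared gene by gene with edgeR's quasi-likelihood test, with p adjusted by Benjamini-Hochberg over all genes tested. None of the 69 protocadherins passed an adjusted p of 0.05, a threshold that 0.0224% of all genes tested passed. With DESeq2, none of the 65 members given an adjusted p passed it either, against 0.571% of the 14713 genes given one. The nearest member was Pcdh20 (DESeq2 adjusted p = 0.0543). At an unadjusted p under 0.05, 8 members (11.6%) were lower in Fmr1-/y, beside 3.67% of all genes, and 0 were higher, beside 4.29%. DESeq2 gave 9 lower and 0 higher, and without Fmr1-/y replicate 5 edgeR gave 5 lower. Beside these lower values stand the CA1 markers, of which 8 of 8 were below 0; their part was not tested. The log2 fold change was below 0 for 54 of 69 members (78.3%), against 48.6% of all genes, with a median of -0.08 against 0.00. A lean below 0 was not particular to protocadherins among the lists taken up further below. It held for 22 of 27 partners and downstream genes (81.5%) and 12 of 18 genes that regulate cluster promoters (66.7%). Among other cadherin superfamily genes, 21 of 32 (65.6%) were below 0. Scaled to library totals alone, 47 members (68.1%) were below 0, against 41.9% of all genes. Leaving out 1 library at a time gave 43 (without wild-type replicate 5) to 59 (without Fmr1-/y replicate 4). Members share libraries and, in part, regulation and reads, so these shares are descriptive and carry no p.

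By group, the fold change was below 0 for 10 of 13 alpha, 19 of 22 beta, 19 of 22 gamma and 6 of 12 non-clustered members. Leaving out each library in turn gave 7 to 11 alpha, 12 to 20 beta, 15 to 21 gamma and 6 to 10 non-clustered members below 0. The lowest beta count, 12, was without wild-type replicate 5, and the highest non-clustered count, 10, was without wild-type replicate 1. The 8 with an unadjusted p under 0.05 were 0 alpha, 2 beta, 3 gamma and 3 non-clustered. The median log2 fold change was -0.08 for alpha, -0.06 for beta, -0.15 for gamma and 0.00 for non-clustered members. Every Fmr1-/y library lay below every wild-type library for 1 member, Pcdh20, as for 0.41% of all genes, and above for 0 members, as for 0.213% of all genes.

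**Figure D2:**
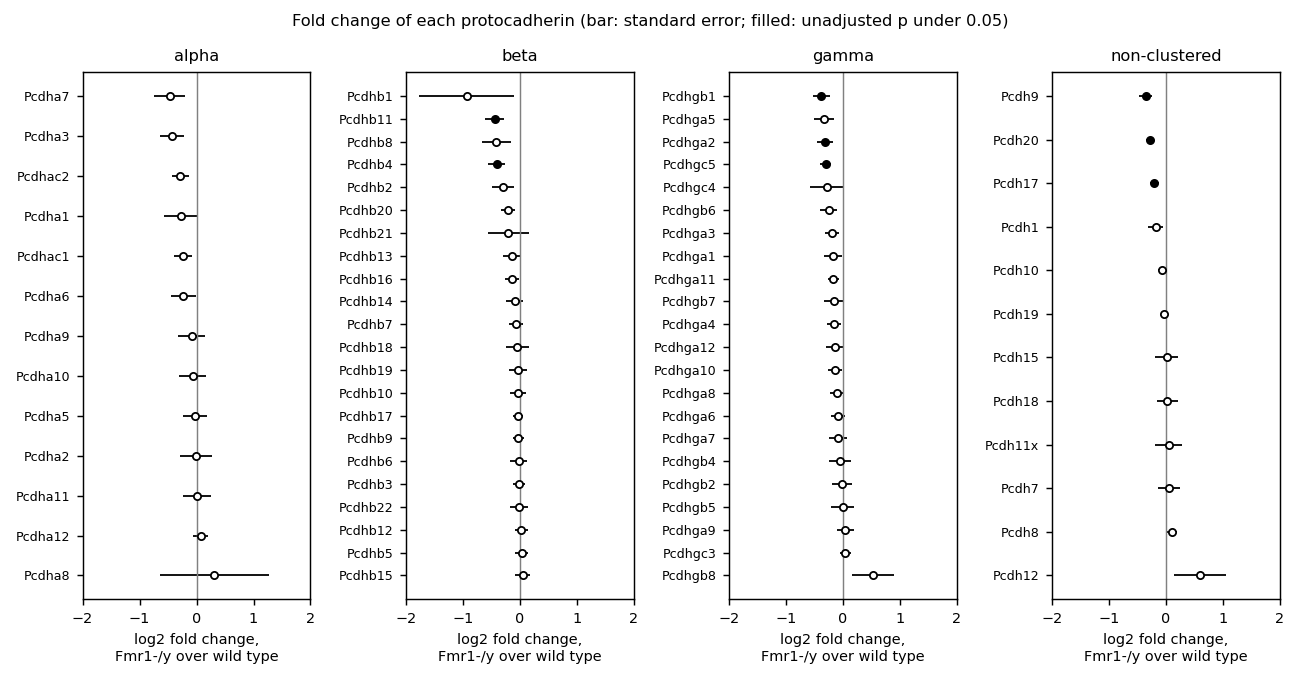
Log2 fold change (Fmr1-/y over wild type) of each protocadherin with its standard error, by group and sorted by fold change, from the edgeR fit on 6 libraries per genotype. Filled points, all left of 0, are the 8 members with an unadjusted p under 0.05, and the widest bars belong to the scarcely expressed Pcdha8 and Pcdhb1.

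Pcdh20, a non-clustered protocadherin outside the delta group (chromosome 14, 88464743 to 88471396, GRCm38), had the lowest p. Its level was 81.3, 86.8 and 99.0 CPM (lowest, median and highest library) in wild type, and the Fmr1-/y libraries gave 62.4, 75.5 and 79.8 CPM. The genotypes did not overlap, and the Fmr1-/y mean was 83.0% of the wild-type mean (88.1 ± 5.95 and 73.1 ± 6.82 CPM, SD, n = 6 each). The log2 fold change was -0.27 ± 0.07 (SE), with a 95% interval from -0.42 to -0.12 and an edgeR adjusted p of 0.273.

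Pcdhgc5, the highest clustered member, had 63.3, 76.9 and 98.1 CPM in the wild-type libraries and 59.2, 61.5 and 73.5 CPM in those of Fmr1-/y. Only 3 Fmr1-/y libraries lay below the lowest wild-type one. The log2 fold change was -0.30 ± 0.09, with an edgeR adjusted p of 0.365. Pcdhgc3 from the same cluster went the other way in its means, from 21.5 ± 2.58 to 22.2 ± 3.03 CPM, a difference within the spread (log2 fold change 0.05, 95% interval -0.17 to 0.26).

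Pcdh9, a delta protocadherin of cortical and hippocampal circuits, had 61.3, 82.2 and 92.6 CPM in the wild-type libraries and 45.5, 62.2 and 76.9 CPM in those of Fmr1-/y. The ranges overlapped, with 2 Fmr1-/y libraries below all wild-type ones. The log2 fold change was -0.35 ± 0.11 with an edgeR adjusted p of 0.378. Pcdh17, which acts at presynaptic sites, went from 58.1 ± 6.42 to 50.6 ± 4.62 CPM (log2 fold change -0.20, edgeR adjusted p = 0.539).

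Among beta members, Pcdhb4 had 3.15, 4.38 and 4.67 CPM in the wild-type libraries and 2.58, 3.05 and 4.07 CPM in those of Fmr1-/y (log2 fold change -0.41, edgeR adjusted p = 0.482). Pcdhb11 had 3.29, 3.54 and 3.81 CPM in the wild-type libraries and 1.67, 2.57 and 3.69 CPM in those of Fmr1-/y. For Pcdhb11, 5 of 6 Fmr1-/y libraries lay below the lowest wild-type library, and the log2 fold change was -0.44 with an edgeR adjusted p of 0.499. The remaining members with an unadjusted p under 0.05, named after their values were seen, were Pcdhgb1 (4.28 to 3.31 CPM, log2 fold change -0.37) and Pcdhga2 (9.11 to 7.32 CPM, log2 fold change -0.32).

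**Figure D3:**
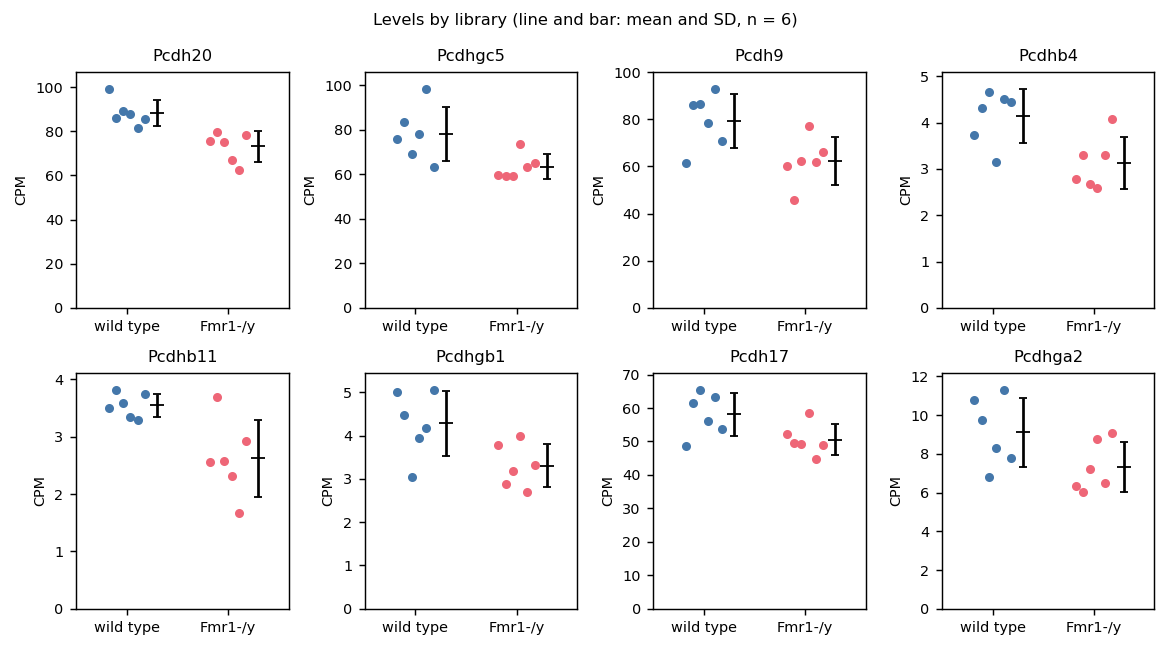
Level in CPM of the 8 protocadherins with an unadjusted p under 0.05, 1 point per library, with the mean and SD of each genotype (n = 6) beside the points. The groups separate fully for Pcdh20 and overlap for the other 7.

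The 5 members with a higher mean in Fmr1-/y and the smallest p had adjusted p from 0.799 to 0.955 (edgeR). Pcdhgb8, annotated as a transcribed pseudogene, had 0.365 and 0.528 CPM (log2 fold change 0.53 ± 0.37, edgeR adjusted p = 0.799). Pcdh12 had 0.270 ± 0.109 and 0.410 ± 0.215 CPM (log2 fold change 0.61 ± 0.46, edgeR adjusted p = 0.818). Without Fmr1-/y replicate 5, its highest library, the log2 fold change of Pcdh12 was 0.30. Beside Pcdh12, the markers of endothelium summed to 24.7–35.4 CPM in the wild-type libraries and 29.0–45.8 CPM in those of Fmr1-/y. Of these 4 markers, 2 were higher at an unadjusted p under 0.05 (edgeR), beside 4.29% of all genes tested. Their part in the Pcdh12 level was not tested. Pcdh8, an activity-induced protein that drives endocytosis of N-cadherin, had 32.7 ± 2.70 and 35.1 ± 5.41 CPM (log2 fold change 0.10, and 0.03 without Fmr1-/y replicate 4), Pcdha12 had 4.37 and 4.60 CPM, and Pcdhgc3 had the values given with Pcdhgc5.

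The remaining non-clustered members had intervals that spanned 0. Pcdh19, an X-linked gene whose mutations cause an epilepsy, had the smallest standard error (0.05), with 99.7, 104 and 108 CPM in the wild-type libraries and 97.0, 101 and 110 CPM in those of Fmr1-/y. Its log2 fold change was -0.03, with a 95% interval from -0.14 to 0.09. Pcdh10, which takes part in synapse removal, went from 69.2 ± 4.94 to 66.0 ± 6.54 CPM (log2 fold change -0.07, 95% interval -0.22 to 0.09). Pcdh7 was wider, at 17.3, 22.9 and 29.9 CPM in the wild-type libraries and 12.7, 23.8 and 35.4 CPM in those of Fmr1-/y, so that its interval reached from -0.36 to 0.46. Pcdh11x (2.67 and 2.75 CPM), Pcdh18 (1.68 and 1.72 CPM) and Pcdh15, the tip-link cadherin of hair cells (5.31 and 5.38 CPM), were low in both genotypes.

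Pcdh1 had 74.1, 111 and 126 CPM in the wild-type libraries and 78.1, 87.8 and 115 CPM in those of Fmr1-/y (log2 fold change -0.18 ± 0.13, edgeR adjusted p = 0.814). Pcdhac2 had 16.3, 25.0 and 27.4 CPM in the wild-type libraries and 15.7, 17.3 and 25.8 CPM in those of Fmr1-/y (log2 fold change -0.29 ± 0.15, edgeR adjusted p = 0.672). Both were highest in the same 6 libraries, 4 wild-type and 2 Fmr1-/y, and those 6 also had the most Prox1, a transcription factor of dentate granule cells. Prox1 was singled out after its values were seen. These 6 libraries were the highest for 2 of 69 members (2.90%), no more than the 4.37% of all genes tested. C1ql2, another dentate marker, had 17.8–24.1 CPM in these 6 libraries and 19.6–29.3 CPM in the other 6. The whole list of 4 CA3 and dentate markers summed to 54.6–66.1 CPM in the wild-type libraries and 49.8–66.5 CPM in those of Fmr1-/y. The part of CA3 and dentate cells in the Pcdh1 and Pcdhac2 levels was not tested. The other C-type isoforms, Pcdhac1 (3.83 and 3.25 CPM) and Pcdhgc4 (2.58 and 2.12 CPM), overlapped between genotypes.

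Summed over members, the alpha cluster had 49.6 ± 8.88 CPM in wild type and 43.2 ± 8.19 in Fmr1-/y, 87.0% of wild type. The beta cluster had 139 ± 13.4 and 132 ± 9.49 CPM (94.7%), the gamma cluster 215 ± 27.4 and 189 ± 17.7 CPM (87.9%) and the non-clustered genes 569 ± 43.1 and 515 ± 40.2 CPM (90.6%). All 4 sums overlapped between genotypes. Fmr1-/y replicate 4 was the highest Fmr1-/y library for the alpha (57.9 CPM), gamma (220 CPM) and non-clustered (587 CPM) sums. Fmr1-/y replicate 6 was highest for beta, at 148 CPM.

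**Figure D4:**
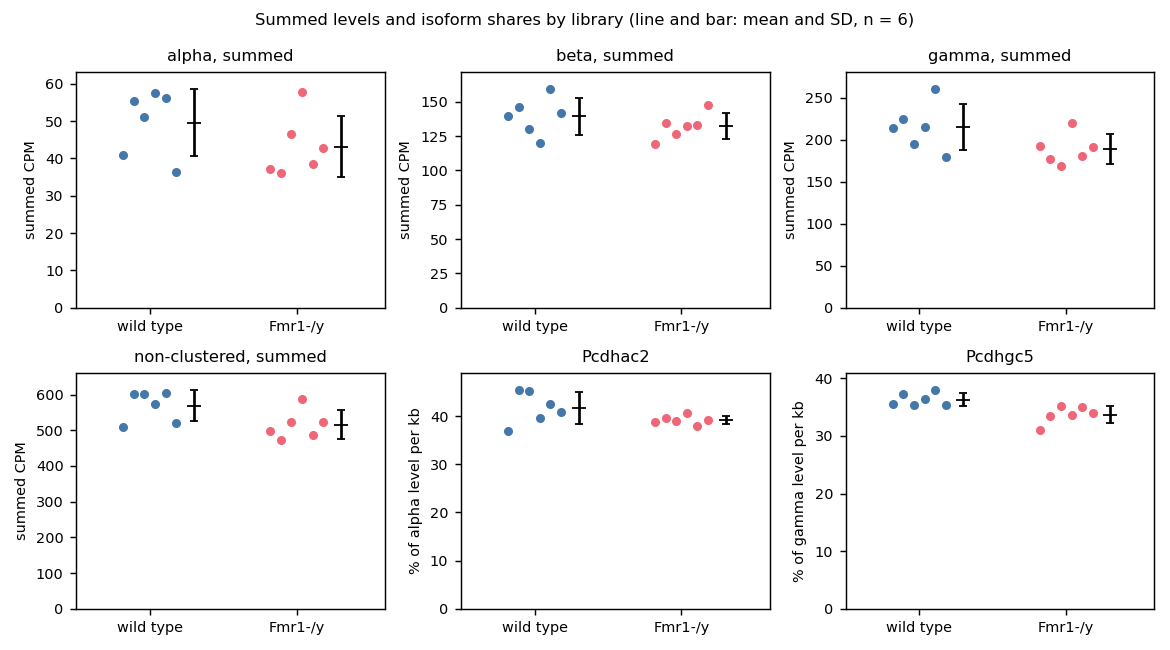
Summed level in CPM of the alpha, beta, gamma and non-clustered protocadherins, and the percent of the alpha and gamma level per kilobase held by Pcdhac2 and Pcdhgc5, 1 point per library with mean and SD (n = 6 per genotype). The summed levels and Pcdhac2 overlap between genotypes, and the Pcdhgc5 share does not, by a narrow gap.

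Reads of near-identical isoforms add uncertainty to single clustered members. The percent of 50-base stretches of own exon that also occur in another listed gene had a median of 14.8% in alpha members, with Pcdha7 highest at 23.5%. All C-type isoforms of both clusters had 0%. Levels per kilobase were not corrected for such stretches. If reads in them went uncounted, the C-type shares given above are too high. The percent was up to 18.1% in gamma members. For beta and non-clustered members the stretches came from whole GENCODE transcripts, some longer than the exon used for levels. Pcdhb14, for example, had 8646 stretches and 3438 exon bases. On that basis the percent was up to 11.99% in beta members, which cannot be compared with alpha and gamma, and 0% in all non-clustered genes.

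Genes that act with protocadherins were counted from lists chosen by function. Of 19 genes that regulate cluster promoters (CTCF, cohesin and its loaders, DNA methyltransferases, silencers), 18 were tested and none passed an edgeR adjusted p of 0.05. At an unadjusted p under 0.05, 1 was lower (5.56%, beside 3.67% of all genes) and 2 were higher (11.1%, beside 4.29%). Dnmt3b, a DNA methyltransferase, had 2.67 ± 0.471 CPM in wild type and 1.65 ± 0.510 in Fmr1-/y (edgeR adjusted p = 0.360). Smc1a, a cohesin subunit, had 96.4 ± 4.64 and 113 ± 19.3 CPM (edgeR adjusted p = 0.495). Ctcf itself had 78.9 ± 3.92 and 74.4 ± 6.73 CPM (edgeR adjusted p = 0.828).

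Of 27 partners and downstream genes, all tested, none passed the adjusted threshold (0.0224% of all genes did). At an unadjusted p under 0.05, 2 were lower (7.41%, beside 3.67% of all genes) and 0 higher (beside 4.29%). Nckap1, a subunit of the WAVE complex that binds several protocadherins, had 550 ± 44.0 CPM in wild type and 478 ± 27.6 in Fmr1-/y (log2 fold change -0.20, edgeR adjusted p = 0.361). Its Fmr1-/y libraries all lay below the wild-type ones, as for 0.41% of all genes. The higher gene with the smallest p was Marcks, an actin-binding substrate of protein kinase C, at 79.1 and 88.7 CPM (edgeR adjusted p = 0.636).

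Of 33 other cadherin superfamily genes, 32 were tested, none passed the adjusted threshold, and at an unadjusted p under 0.05, 6 were lower (18.8%, beside 3.67% of all genes) and 2 higher (6.25%, beside 4.29%). Fat3, a giant cadherin of neuronal dendrites, had 73.3 ± 4.95 CPM in wild type and 61.0 ± 5.61 in Fmr1-/y, with overlap (log2 fold change -0.27, edgeR adjusted p = 0.290). Cdh10 had 26.0 ± 1.58 and 22.4 ± 1.51 CPM (edgeR adjusted p = 0.407). Cdh8 had 59.2 ± 1.83 and 53.0 ± 1.78 CPM (edgeR adjusted p = 0.415). For Cdh10 and Cdh8, every Fmr1-/y library lay below every wild-type library, as for 0.41% of all genes. Cdh1, the epithelial E-cadherin, had 1.04 ± 0.310 and 2.14 ± 0.931 CPM (log2 fold change 1.04, edgeR adjusted p = 0.313). Beside Cdh1, markers of the choroid plexus, an epithelium, had a higher mean sum in Fmr1-/y, with the overlapping ranges given with the marker lists. Of those 3 markers, 2 were higher at an unadjusted p under 0.05 (edgeR), beside 4.29% of all genes. Their part in the Cdh1 level was not tested.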

How the data were processed

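The study pulled down HA-tagged ribosomes from hippocampus and sequenced their RNA as stranded libraries. Per the labels and the study's methods, the authors used bcl2fastq 2.17, aligned the 50-base reads to mm10 with TopHat2 2.1.1 and Bowtie2 2.2.8, dropped alignments with more than 3 mismatches, and made read counts per gene with HTSeq 0.6.1p1 in union mode on the proper strand. The deposited counts are raw and whole, for 12 libraries. A read in an exon of several genes is dropped in this mode, which removes reads in the constant exons of the alpha and gamma clusters.

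From the counts, genes with at least 15 reads in total were fitted without covariates by edgeR 4.0.16 (TMM, quasi-likelihood F test, R 4.3.3), two-sided, with Benjamini-Hochberg adjustment over all genes. DESeq2 1.42.0, limma 3.58.1 (voom), other scalings and filters, a replicate block and leaving out each library were alternatives. The code was tested on simulated data. Levels per kilobase used exon bases of GENCODE M21 transcripts within RefSeq gene spans (GRCm38) that belonged to 1 gene on that strand, an approximation to the authors' gene models. Promoter sequences are from RefSeq, GRCm38.p6. The labels call the pools biological replicates, and p-values judge the genotype difference against the spread between them.

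The members and the gene lists were chosen with earlier results of these data known. Named with values were the 3 highest members of each group by wild-type level per kilobase, the C-type isoforms, the delta protocadherins, the 5 lower and 5 higher members with the smallest p, any member past the adjusted threshold, Fmr1, and the lower and higher gene with the smallest p of each list. Outside this rule, values were also given for some genes, among them Ctcf, Cdh8, Cdh10, Pcdha7, Pcdha8, Pcdhb1 and Pcdhb14. Others were Pcdh15, Pcdhgb1, Pcdhga2 and single cell-type markers.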

Additional observations from a re-analysis of the deposited data

Results flagged for a closer look

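A library was picked out where its distance to the next one, as a ratio to the spread from lowest to highest of the 6 libraries of its genotype, exceeded Dixon's 95% critical value. Over 60 groups of named members and sums, 4 exceeded it, and chance would give about 3. The level of Pcdhb17 in Fmr1-/y replicate 6 (22.6 CPM) stood above the other libraries of its genotype (15.7–18.2 CPM), with a ratio of 0.646. Pcdhga11 stood out in wild-type replicate 5 (18.9 CPM against 12.96–14.8, ratio 0.684) and in Fmr1-/y replicate 4 (15.1 CPM against 12.3–13.3, ratio 0.664). Pcdhgc4 in wild-type replicate 5 was 4.21 CPM against 1.65–2.60, with a ratio of 0.627.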

How the results depend on the processing

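No member passed an adjusted p of 0.05 under any of the 20 alternatives, with adjusted p from 0.0543 to 0.9995 over the named members. Leaving out each library in turn gave 0 members past that threshold in every fit, and 5 to 12 lower and 0 higher members at an unadjusted p under 0.05. The lowest count, 5, was without Fmr1-/y replicate 5, and the highest, 12, was without Fmr1-/y replicate 4 or without wild-type replicate 6. Scaling to library totals gave 6 lower members and DESeq2 gave 9. For the summed log2 ratios the leave-one-out ranges were -0.30 to -0.15 for alpha, -0.12 to -0.04 for beta, -0.23 to -0.12 for gamma and -0.18 to -0.12 for the non-clustered genes. The median of the members' log2 fold changes in place of the non-clustered sum was -0.00306. Of 519 comparisons of the 26 named members, 503 kept their direction and side of the threshold, and 16 turned direction, all in members near 0. Under leave-one-out these ran from -0.132 to 0.152 for Pcdh11x, -0.0977 to 0.179 for Pcdh7, -0.0304 to 0.0742 for Pcdh18, -0.00555 to 0.0952 for Pcdhb5, -0.106 to 0.00577 for Pcdhb17 and -0.0177 to 0.0867 for Pcdhgc3. The cause was not tested.

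With the replicate number as a replicate block, 0 members passed the adjusted threshold, 9 were lower and 0 higher, and Pcdh11x turned to -0.0295. Over 12788 genes the correlations of same-numbered libraries ran from -0.24 to 0.35, and 1 wild-type and 0 Fmr1-/y libraries correlated best with their own number, so the numbers are not shown to pair the pools. Low members such as Pcdha8 and Pcdhb1 had few reads (0 to 27 and 0 to 16 per library) and the widest standard errors. A filter of 10 reads in every library left 66 members.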
